A study of Drosophila melanogaster with 18 samples.

Results

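Brains of 14-day-old virgin females were compared with brains of 3-day-old virgin females. The comparison used 5 of the 16 libraries of a study of fly brains, which covered both sexes at 3, 7 and 14 days after eclosion. There were 3 libraries of 3-day females (replicates 1, 2 and 3) and 2 of 14-day females (replicates 2 and 3), since the study had removed replicate 1 of the latter as an outlier. All flies were of the Oregon wild-type strain of Drosophila melanogaster, were parted by sex as virgins soon after eclosion, and were kept on cornmeal agar under a light and dark cycle without any treatment, so that the 2 groups differed by age alone as labelled. Each library held the RNA of a pool of 100 dissected brains. A pool averages over many flies, and the p-values measure the spread between pools.

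The adult fly brain holds neurons and the glia that wrap them, feed them and clear their transmitters. The optic lobes lie against the retina, so that dissected brains can carry photoreceptor cells with them. The oesophagus runs through the brain, and patches of fat body, the tissue that stores fat and secretes blood proteins, lie on its surface together with muscle and trachea. In these bulk samples fewer cells of a type and less RNA per cell cannot be told apart.

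Values are normalized reads, and those of a gene are listed in the order of 3-day replicates 1, 2 and 3, then 14-day replicates 2 and 3. A fold change is on the log2 scale after adding 1 read, and it is positive where 14-day females were higher. Of the 13439 genes in the table, 6308 had a mean of 100 or more over the 5 libraries and are called abundant. The other 7131 are called scarce, and 6140 of them were tested, those with a mean of 5 or more across all 16 libraries. The threshold for a change is an adjusted p of 0.1, the stricter of those used in the study.

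The 5 libraries held 3313962 to 7652315 reads, and both 14-day libraries detected more genes (13134 and 13168) than the 3-day libraries (11150 to 12112). Rank correlations across genes were 0.939 to 0.960 among 3-day libraries, 0.957 between the 14-day libraries and 0.874 to 0.933 across ages. All 7 neuronal markers (elav, nSyb, brp, Syt1, VAChT, VGlut and Gad1) and all 6 glial markers were present in every library of the comparison. The pan-neuronal gene elav had 4527, 4160 and 4454 against 3424 and 1781, and the glial factor repo had 298.3, 301.7 and 237.5 against 200.2 and 153.5. The changes of elav and repo did not pass the threshold (adjusted p = 0.22 and 0.14), though their groups did not overlap. The summed level of the 7 neuronal markers was 57230 to 88976 at 3 days and 22655 to 44351 at 14 days, and 3 were lower. For the 6 glial markers it was 7296 to 24198 and 3342 to 4623, and 4 were lower. Markers of other tissues were also present. Their summed levels ran from 19959 to 46669 at 3 days and from 4811 to 12310 at 14 days for 5 photoreceptor markers. The range went from 6406 to 19693 down to 155.3 to 538.0 for 5 gut markers and from 18129 to 54132 up to 110853 to 153507 for 6 fat body markers. The summed level of 4 ovary markers was 7.29 to 174.9 at 3 days, when osk was at 0 in all libraries, and 318.3 to 1016 at 14 days. Muscle markers went from 2000 to 5069 down to 1285 to 1772. Hemocyte markers went from 54.9 to 101.7 up to 240.5 to 249.7, and 2 of the 4 tested were higher. Testis markers were at 2.24 to 100.0 and 51.8 to 62.4, and 0 of 4 passed. Several of these markers are also members of the lists described below.

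Among abundant genes more fell than rose, and among scarce genes nearly all changes were rises. Of the 6308 abundant genes, 181 were higher at 14 days (2.87%) and 531 were lower (8.42%). Of the lower genes, 89 had 14-day means below 100 and count as abundant only through the 3-day libraries. Of the 6140 scarce genes, 1945 were higher (31.7%) and 43 were lower (0.7%). The 2 groups did not overlap in 40.6% of abundant and 59% of scarce genes, so a lack of overlap is common here. The median log2 fold change was −0.23 over abundant and 1.31 over scarce genes. List counts below have to be read against the shares given here, and list medians against these medians.

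This split followed the level of the gene closely. The median log2 fold change went from 2.18 for the 1500 genes with a mean below 10 to 0.07 for means of 100 to 200 and to −0.75 for the 558 genes with a mean of 2000 or more. Falls were called in 54 of 1957 genes with a mean of 100 to 200 and in 96 of the 558. Scarce genes took 2.22% to 2.5% of the reads at 3 days and 4.54% and 7.57% at 14 days. The split also depended on the scaling: of the abundant genes called, 25.4% were higher, but 51.2% were higher (316 against 301) when libraries were rescaled on abundant genes, which moved their median to 0.02. With quantile normalization 54 abundant genes were higher and 106 lower, and 179 scarce genes were higher and 123 lower, so that the share of rises among scarce calls went from 97.8% to 59.3%.

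**Figure D1:**
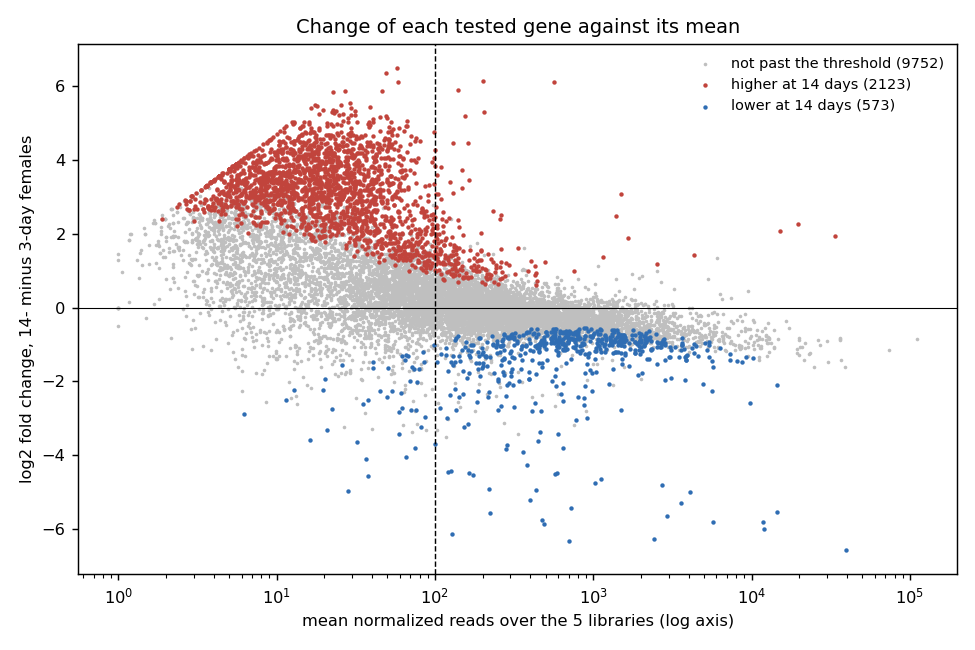
Each point is 1 of the 12448 tested genes, with its mean over the 5 libraries (log axis) and its log2 fold change from 3 to 14 days; the dashed line marks a mean of 100. Left of it the calls are nearly all rises (1945 against 43) and right of it falls outnumber rises (531 against 181).

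The number of calls depended on single libraries. Without 14-day replicate 3 only 9 genes passed, with replicate 2 then the sole 14-day library, and 1267 passed without replicate 2. Medians moved less than the calls, to −0.18 for abundant and 1.14 for scarce genes without replicate 3 and to −0.27 and 1.47 without replicate 2. The 9 were Cp36, Cp38, CG3323 and SA2, which were higher, and CG7214, CG34220, Muc68D, Skp2 and CG14645, which were lower. Muc68D, a mucin of the gut lining named only for this reason, had 7909, 7584 and 1790 against 21.9 and 651.6. Leaving out a single 3-day library left 1358, 2103 and 2941 calls for replicates 1, 2 and 3. The markers elav, repo, ninaE, Gad1, VGlut, VAChT, Yp1, Yp2 and osk are named as cell type markers, and Eaat2, ChAT and Apoltp after their values were seen. In what follows values without 14-day replicate 3 stand beside most groups of genes.

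Many genes of vision fell. In photoreceptors an opsin activates a G protein, a phospholipase then opens the trp channels, and arrestin ends the response. Of 11 abundant genes for opsins and visual pigment synthesis 8 were lower, 0 were higher and 3 did not pass, with a median log2 fold change of −1.78 against −0.23 for all abundant genes. Of 20 abundant genes of the phototransduction cascade 14 were lower and 0 were higher (median −1.31). The medians without 14-day replicate 3 were −1.22 and −0.87.

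Rh3, an ultraviolet opsin of the R7 cells, had 1693, 734.9 and 434.4 reads against 286.5 and 67.4 (log2 fold change −2.54, SE 0.70, adjusted p = 0.026). Rh4, the other ultraviolet opsin, had 1460, 1098 and 870.5 against 470.6 and 89.9 (−2.43, SE 0.64, adjusted p = 0.022). Rh5, the blue opsin of the R8 cells, had 397.0, 268.3 and 294.2 against 72.5 and 47.4 (−2.41, SE 0.52, adjusted p = 0.01). For all of these opsins the groups were apart, and 14-day replicate 3 was the lowest library. The main opsin ninaE of the outer photoreceptors behaved likewise, with 31035, 17739 and 13002 against 8292 and 2467 (−2.09, SE 0.67, adjusted p = 0.046). Pdh, a retinoid dehydrogenase of visual pigment turnover, had 1220, 748.9 and 561.7 against 222.1 and 152.3 (−2.12, SE 0.41, adjusted p = 0.0073). Here 14-day replicates 2 and 3 lay close together.

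Within the cascade the largest fall was that of Gbeta76C, the eye-specific G protein beta subunit (3L, 19687637 to 19689992 on release 6). It had 1275, 854.1 and 646.8 reads against 155.3 and 42.4 (log2 fold change −3.43, SE 0.59, adjusted p = 0.0058). The rhabdomere myosin ninaC had 3433, 1542 and 1742 against 539.6 and 177.3 (−2.76, SE 0.44, adjusted p = 0.0058). Both genes were lower in each 14-day library than in any 3-day library. The light-activated channel gene trp had 2053, 962.9 and 856.7 against 362.4 and 131.1 (−2.45, SE 0.49, adjusted p = 0.0087). Arr2, the main arrestin, had 21163, 13386 and 8736 against 3949 and 1278 (−2.59, SE 0.53, adjusted p = 0.009). In trp and Arr2 too, 3-day replicate 1 was highest and 14-day replicate 3 lowest.

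Of 14 abundant genes for photoreceptor structure and the retina 4 were lower (median −0.61). The photoreceptor surface protein chp had 2444, 841.9 and 1096 against 353.2 and 208.5 (−2.27, SE 0.49, adjusted p = 0.01). The lens protein gene retinin had 493.4, 492.8 and 197.8 against 69.0 and 47.4 (−2.65, SE 0.58, adjusted p = 0.011). Among 15 abundant genes of eye pigment transport and synthesis 1 was lower and the median was −0.04, so these genes stayed near or above the median of all abundant genes. When 14-day replicate 3 was left out, the 11 photoreceptor genes valued here had changes of −2.51 to −1.22 and adjusted p of 0.14 to 0.5. How many retinal cells stayed on each dissected brain was not recorded in the sources used here, and its part in these changes was not tested.

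**Figure D2:**
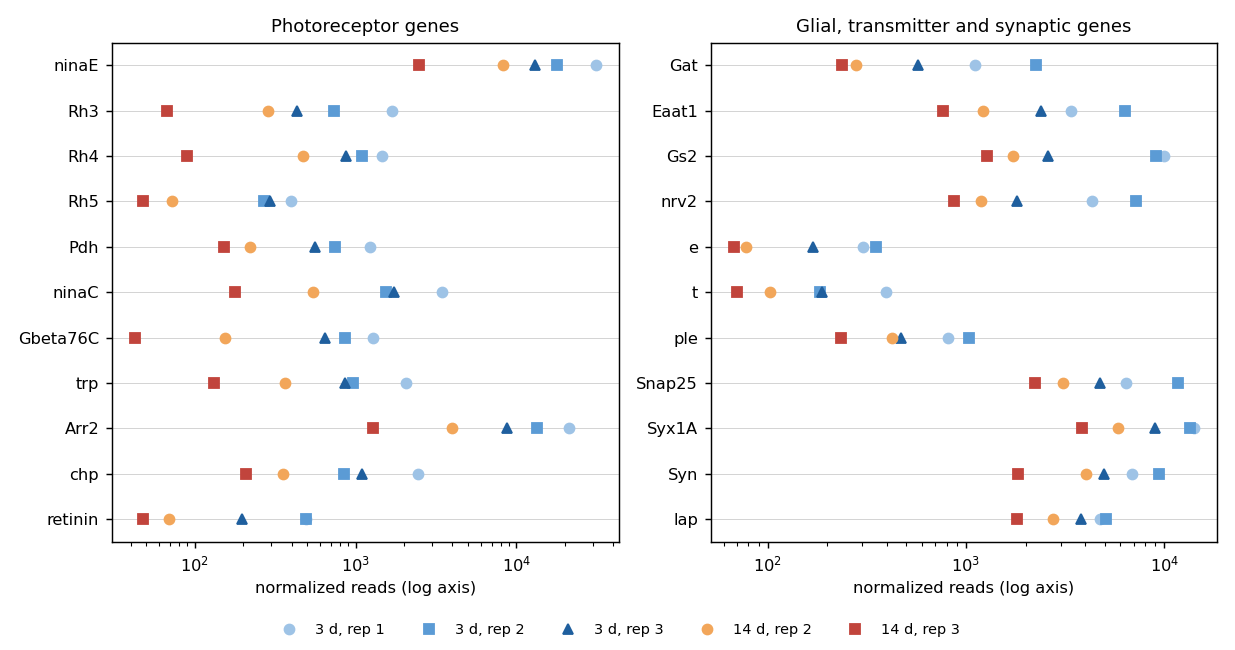
Normalized reads (log axis) of photoreceptor genes on the left and of glial, transmitter and synaptic genes on the right, 1 point per library. In every gene shown, both 14-day libraries lie below all 3-day libraries, and 14-day replicate 3 is lowest.

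Several genes by which glia clear and recycle transmitters fell as well. Glial transporters take up GABA and glutamate, glutamine synthetase converts the glutamate, and the enzyme pair of ebony and tan recycles histamine, the photoreceptor transmitter. Of 23 abundant glial genes 9 were lower and 0 higher (median −0.70), and of 22 abundant genes for transmitter synthesis and transport 10 were lower and 0 higher (median −0.95). Leaving out 14-day replicate 3 gave medians of −0.54 and −0.53. Gat, Eaat1 and Eaat2 belong to both lists, and e and t count in the transmitter list and in that of the retina.

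The GABA transporter Gat, on chromosome 4 (629691 to 635350), had 1106, 2255 and 574.6 reads against 279.6 and 235.9 (log2 fold change −2.13, SE 0.40, adjusted p = 0.0069). The glutamate transporter Eaat1 had 3392, 6368 and 2382 against 1217 and 764.0 (−1.95, SE 0.40, adjusted p = 0.0094). Gs2, glutamine synthetase, had 9926, 9082 and 2590 against 1721 and 1273 (−2.06, SE 0.44, adjusted p = 0.01). Replicate 3 of the 3-day females was lowest of its group in all 3 genes and still lay above both 14-day libraries. The same was seen for nrv2, a glial sodium pump subunit, with 4332, 7212 and 1804 against 1190 and 871.3 (−1.91, SE 0.41, adjusted p = 0.01).

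The ebony gene e had 301.7, 352.5 and 168.6 against 78.2 and 67.4 (−1.84, SE 0.33, adjusted p = 0.0058), and the tan gene t had 397.0, 184.2 and 188.8 against 102.4 and 69.9 (−1.49, SE 0.50, adjusted p = 0.057). The tyrosine hydroxylase gene ple, which opens dopamine synthesis, had 809.7, 1035 and 470.1 against 424.6 and 234.7 (−1.21, SE 0.34, adjusted p = 0.027). In ple 3-day replicate 3 and 14-day replicate 2 were nearly level. Also lower were the genes that make or load GABA, glutamate and acetylcholine, Gad1 (−1.47), VGlut (−1.40), VAChT (−1.15) and ChAT. After removal of 14-day replicate 3, the 7 genes valued here had changes of −2.01 to −0.79 (adjusted p = 0.14 to 0.39).

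At the synapse some vesicle and channel genes were lower, and most members of these lists were not called. Vesicle fusion rests on the SNARE proteins Snap25 and Syx1A, and synapsin tethers the vesicles. Of 32 abundant genes of synaptic vesicles and active zones 6 were lower and 0 higher (median −0.82). Of all 558 genes with a mean of 2000 or more, the range of Snap25, Syx1A, Syn and lap, 96 were lower (median −0.75). Of 29 ion channel genes 4 were lower and 0 higher (median −0.65). Of 43 transmitter receptor genes 0 were lower and 1 was higher, the kainate-type receptor Grik, with a list median of −0.34. The medians without 14-day replicate 3 were −0.41 for vesicles, −0.18 for channels and −0.10 for receptors.

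Snap25 had 6416, 11740 and 4728 reads against 3079 and 2227 (log2 fold change −1.44, SE 0.45, adjusted p = 0.045). Syx1A had 14183, 13429 and 9008 against 5861 and 3849 (−1.33, SE 0.47, adjusted p = 0.066), and Syn had 6883, 9353 and 4980 against 4042 and 1824 (−1.33, SE 0.47, adjusted p = 0.069). The clathrin adaptor gene lap had 4738, 5099 and 3818 against 2733 and 1811 (−1.02, SE 0.34, adjusted p = 0.058). None of these 4 genes overlapped between the ages. Among channels, the inward rectifier Irk2 had 658.3, 701.6 and 398.8 against 353.2 and 263.4 (−0.90, SE 0.25, adjusted p = 0.027). The sodium channel partner tipE had 602.2, 671.7 and 684.1 against 500.5 and 262.2 (−0.85, SE 0.31, adjusted p = 0.077), with 14-day replicate 3 well below replicate 2. Grik had 188.4, 143.8 and 241.5 against 327.9 and 279.6 (0.69, SE 0.26, adjusted p = 0.088).

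Of 88 abundant genes of cell recognition and axon guidance, 10 were lower and 1 was higher (median −0.41, or −0.11 without 14-day replicate 3). Of all abundant genes 8.42% were lower and 2.87% higher, so the counts of this list stood near those shares. Members of the beaten path family, which bind sidestep proteins during axon guidance, made up 6 of the lower genes. For beat-IIIc the reads were 2410, 2350 and 1283 against 1108 and 494.3 (−1.39, SE 0.41, adjusted p = 0.034), and for beat-VI they were 1727, 1687 and 1551 against 1071 and 706.6 (−0.93, SE 0.25, adjusted p = 0.024). The higher gene was DIP-alpha, a partner of Dpr proteins in synaptic matching, with 199.6, 280.6 and 372.8 against 553.4 and 536.8 (0.98, SE 0.29, adjusted p = 0.034). The groups of all these genes were apart. If 14-day replicate 3 is set aside, the 12 called genes of the synapse, channels and recognition that were followed ran from −1.20 to 1.00 with adjusted p of 0.23 to 0.66. With quantile normalization 11 of the 12 did not pass, and the median of the channel list was 0.10.

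Some genes of energy metabolism fell, and most members of these lists did not pass. Of 32 abundant subunits of respiratory complex I 5 were lower (median −0.61), of 24 subunits of complexes II to IV 8 (median −0.84) and of 14 of the ATP synthase 4 (median −0.73). In glycolysis 4 of 13 genes were lower and in the tricarboxylic acid cycle 4 of 16 (both medians −0.61). No abundant member of these 5 lists was higher. These counts stand beside 112 of all 643 genes with a mean of 1000 to 2000 that were lower (median −0.48). At a mean of 2000 or more 96 of all 558 genes were lower (median −0.75). The energy genes valued here had means above 1000, except ND-AGGG (246.2). COX7A of complex IV had 3426, 3353 and 2220 reads against 1432 and 1212 (−1.16, SE 0.34, adjusted p = 0.035). UQCR-Q of complex III had 3106, 3066 and 2698 against 1388 and 1324 (−1.12, SE 0.32, adjusted p = 0.03). Both 14-day libraries were nearly level in these genes.

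The coupling factor ATPsynCF6 had 1389, 1377 and 1315 against 692.6 and 755.2 (−0.91, SE 0.26, adjusted p = 0.032), and ND-AGGG of complex I had 291.6, 371.8 and 261.0 against 154.2 and 152.3 (−0.99, SE 0.28, adjusted p = 0.028). The citrate synthase gene kdn had 2856, 3038 and 1355 against 1224 and 761.5 (−1.23, SE 0.40, adjusted p = 0.05). Gapdh1 of glycolysis had 2962, 3662 and 2729 against 1589 and 1690 (−0.92, SE 0.33, adjusted p = 0.071). Each gene was lower in both 14-day libraries than in any 3-day library. Without 14-day replicate 3 the 8 energy genes followed had changes of −1.09 to −0.81 and adjusted p of 0.2 to 0.42. List medians then stayed at −0.76 for complexes II to IV and −0.78 for the ATP synthase. With quantile normalization 0 members of the 5 lists passed, and the medians were −0.28 to −0.04.

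Genes of protein synthesis and turnover gave few calls. Among 80 abundant cytosolic ribosomal proteins 0 passed in either direction (median −0.09), nor did any of 64 mitochondrial ribosomal proteins (median −0.15) or 31 proteasome subunits (median 0.17). Of 23 abundant chaperones only CCT6, a chaperonin subunit, passed, with 219.8, 215.7 and 162.1 against 248.5 and 475.6 (0.80, SE 0.31, adjusted p = 0.098). The higher of its 14-day values was that of replicate 3. The chaperone median was 0.38. It was 0.72 without 14-day replicate 2 and 0.0 without replicate 3, and the proteasome median went to 0.46 and −0.22 in these settings, so its sign rested on replicate 3. The medians without replicate 3 were −0.21 for cytosolic and −0.29 for mitochondrial ribosomal proteins. Rescaled on abundant genes, 8 chaperones were higher.

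**Figure D3:**
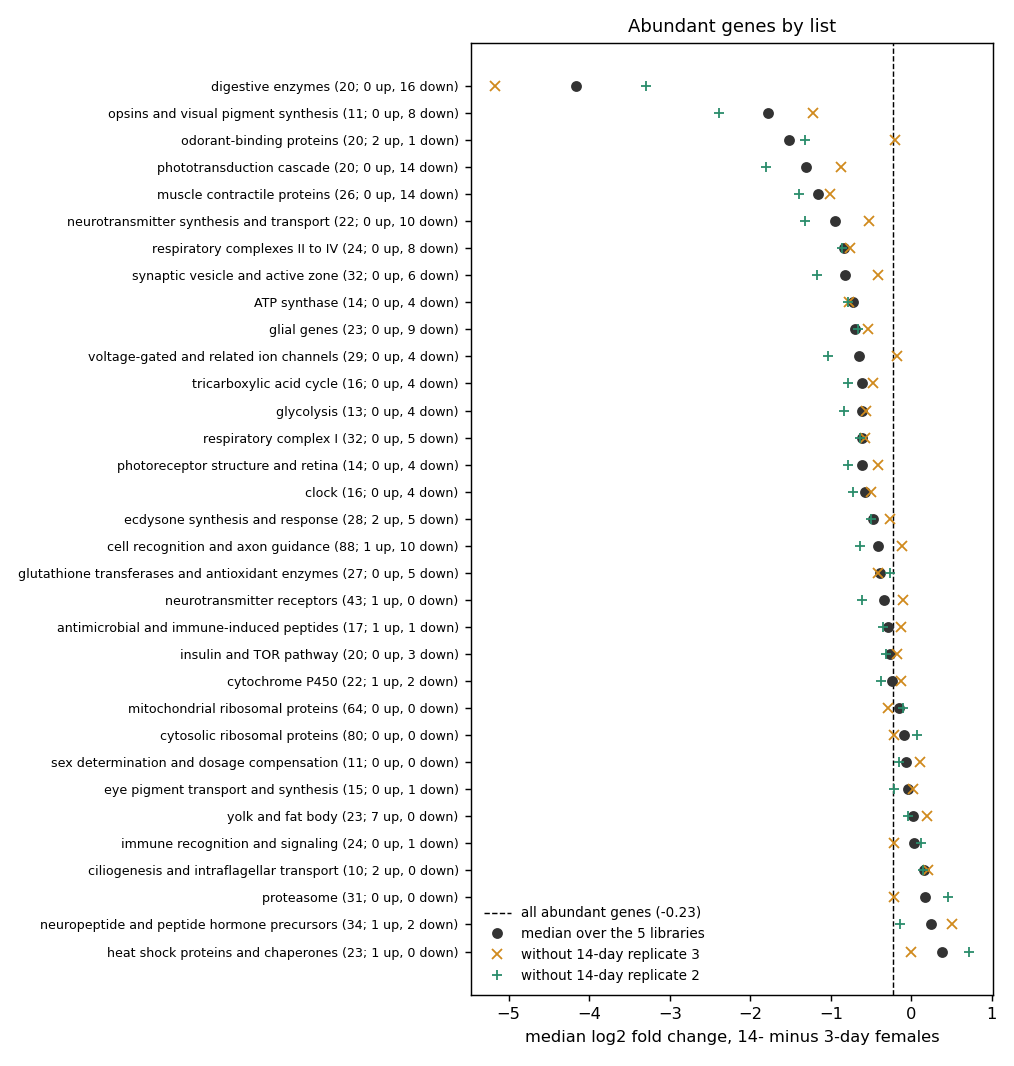
Median log2 fold change of the abundant members of each list with at least 10 of them, with the number of members, rises and falls in brackets. Crosses and plus signs give the medians without 14-day replicate 3 or 2, and the dashed line is the median of all abundant genes (−0.23); digestive enzymes (−4.16) and visual genes (−1.78 and −1.31) lie far below it.

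Peptide hormones gave few changes. Of 34 abundant neuropeptide and peptide hormone precursors 2 were lower and 1 was higher. The list median was 0.24, but −0.14 without 14-day replicate 2, −0.01 without 3-day replicate 1 and 0.50 without 14-day replicate 3. Nplp3, a neuropeptide-like precursor, had 870.2, 591.1 and 402.8 reads against 110.5 and 63.7 (−2.80, SE 0.44, adjusted p = 0.0058). Akh, the hormone that mobilizes stored fat and sugar, had 456.4, 824.3 and 209.1 against 117.4 and 98.6 (−1.98, SE 0.55, adjusted p = 0.027). In both the ages were apart. Orcokinin, a brain and gut peptide, had 1441, 1012 and 2707 against 4870 and 2592 (1.17, SE 0.44, adjusted p = 0.082), and here the groups overlapped.

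Of 20 abundant insulin and TOR pathway genes 3 were lower, among them ImpL2, which binds insulin-like peptides in the blood, with 390.3, 340.3 and 365.5 against 224.4 and 196.0 (−0.80, SE 0.29, adjusted p = 0.075). These 3 calls were lost when libraries were rescaled on abundant genes, and 2 other members were then higher. Among 16 abundant clock genes 4 were lower and none of them is per, tim, Clk or cyc. The largest fall was in takeout, the clock-controlled feeding gene to, with 460.9, 482.3 and 462.8 against 124.3 and 41.2 (−2.69, SE 0.67, adjusted p = 0.017). The 3-day libraries agreed closely in to, while the 14-day libraries were some way apart. When 14-day replicate 3 was left out, the 6 genes followed for peptides, insulin and the clock had changes of −2.41 to 1.62 (adjusted p = 0.14 to 0.41).

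The study named the ecdysone pathway, in which the steroid binds the receptor EcR and coactivators such as taiman (tai) and DOR (TP53INP). Of 28 abundant genes of ecdysone synthesis and response 5 were lower and 2 higher (median −0.47), and since the study picked members of this list on these samples, its count is not independent evidence of a direction. EcR (2R, 6087873 to 6169087) had 2136, 2357 and 1824 against 1575 and 873.8 (−0.84, SE 0.29, adjusted p = 0.066). Eip63E, an ecdysone-induced kinase of the cyclin-dependent family, had 1494, 1272 and 1449 against 936.5 and 755.2 (−0.74, SE 0.23, adjusted p = 0.04). TP53INP had 2509, 2755 and 2603 against 1556 and 1145 (−0.97, SE 0.28, adjusted p = 0.033), and tai had 1211, 1217 and 1107 against 904.3 and 585.5 (−0.69, SE 0.26, adjusted p = 0.086). In all 4 genes both 14-day libraries were below the 3-day libraries, with replicate 3 the lowest.

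The nuclear receptor gene Hr4 had 135.7, 133.3 and 215.6 against 278.4 and 287.1 (0.84, SE 0.30, adjusted p = 0.071), the opposite direction. Of 3 genes the study related to the optic nerve, RapGAP1 was lower, with 2004, 1943 and 1739 against 1231 and 972.5 (−0.79, SE 0.24, adjusted p = 0.04). Appl, the amyloid precursor homologue, had 16758, 17512 and 11748 against 13168 and 5339 and did not pass (−0.85, SE 0.58, adjusted p = 0.33), and its groups overlapped. The immunoglobulin family gene tutl had 13849, 13137 and 18140 against 11670 and 6288 and did not pass either (−0.80, SE 0.52, adjusted p = 0.31). After removal of 14-day replicate 3, EcR changed by −0.41 (adjusted p = 0.61), Eip63E by −0.58 (adjusted p = 0.34), tai by −0.38 (adjusted p = 0.61) and TP53INP by −0.75 (adjusted p = 0.33). With edgeR on the recovered reads 2 of the 6 genes called here passed.

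Digestive enzymes were among the largest falls. Of 20 abundant digestive enzymes 16 were lower and 0 higher, with a median log2 fold change of −4.16. The 14-day means of epsilonTry (14.7), Jon99Cii (13.7), Jon25Bii (36.8) and betaTry (88.7) were below 100. Such members count as abundant only through the 3-day libraries, so this count and median are descriptions. Gut cells make these trypsins, other serine proteases (Jon) and sugar-cleaving enzymes for release into the gut lumen. The 12 largest falls among abundant genes were those of CG34220, CG43673, betaTry, CG7214, CG14645, Jon25Bii, Skp2, CG3906, epsilonTry, alphaTry, Jon99Cii and CG34324. Of these, 5 are in the digestive list (betaTry, Jon25Bii, epsilonTry, alphaTry and Jon99Cii), and the other 7 are in no list of a tissue. The 12 ran from −6.56 to −5.54 with adjusted p of 0.0035 to 0.032.

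CG34220 (2R, 10041065 to 10043507) had 98221, 87273 and 8083 reads against 46.0 and 4020 (log2 fold change −6.56, SE 1.58, adjusted p = 0.015). The trypsin betaTry had 3703, 5507 and 2698 against 13.8 and 163.5 (−6.27, SE 1.81, adjusted p = 0.032), and epsilonTry had 569.7, 1196 and 567.4 against 6.90 and 22.5 (−5.74, SE 1.19, adjusted p = 0.0094). In these 3 genes 14-day replicate 2 was the lowest library, the reverse of the visual genes. The maltase Mal-A1 had 320.7, 1091 and 337.2 against 32.2 and 31.2 (−3.91, SE 0.77, adjusted p = 0.0078), with both 14-day libraries level. Trypsins and Jon proteases are families of near copies, so reads may have been split between them and their single values are uncertain.

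Skp2, a subunit of a ubiquitin ligase, had 14499, 34008 and 8042 against 32.2 and 2388 (−5.81, SE 1.55, adjusted p = 0.023). CG14645, which lies within it on 3R (4335098 to 4335506 inside 4334879 to 4337674), had nearly the same reads, 14461, 34871 and 8036 against 26.5 and 2282. The library kit did not mark the strand, so reads of this pair cannot be told apart and the fall of Skp2 is uncertain. CG7214 stood apart from the other genes by its even values, 200.7, 107.0 and 325.8 against 2.30 and 1.25 (−6.14, SE 0.81, adjusted p = 0.0035). If 14-day replicate 3 is set aside, the 14 genes followed here had changes of −9.77 to −3.89, and 4 of them still passed. Without replicate 2 they were −6.42 to −2.73 and also 4 passed. The 5 gut markers were all lower at 14 days, and how much oesophagus or gut stayed on the brains, and its part in these changes, was not tested.

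Many muscle genes were also lower. Of 26 abundant genes for contractile proteins 14 were lower and 0 higher (median −1.16). The actin gene Act79B had 981.2, 1396 and 399.6 against 192.1 and 136.1 (−2.33, SE 0.41, adjusted p = 0.0058), and the myosin light chain gene Mlc2 had 2349, 4167 and 1607 against 828.4 and 595.5 (−1.83, SE 0.46, adjusted p = 0.018). The troponin C gene TpnC25D had 325.2, 652.4 and 370.4 against 92.0 and 107.4 (−2.10, SE 0.53, adjusted p = 0.018). Groups were apart in each, and 3-day replicate 2 was highest. Of the 4 muscle markers 1 was lower, and the share of muscle left on the brains was not tested. The collagen gene Col4a1, a basement membrane protein made by fat body and hemocytes, had 890.4, 1554 and 1271 against 416.5 and 426.9 (−1.52, SE 0.35, adjusted p = 0.013). Without 14-day replicate 3 the muscle genes Act79B, Mlc1, Mlc2 and TpnC25D together with Col4a1 had changes of −2.21 to −1.53 (adjusted p = 0.14 to 0.22).

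Among detoxification genes 5 of 27 abundant glutathione transferases and antioxidant enzymes were lower and 0 higher (median −0.39). For 22 cytochrome P450 genes the counts were 2 lower and 1 higher (median −0.24). GstT4 had 392.5, 634.9 and 251.3 against 133.5 and 106.1 (−1.73, SE 0.40, adjusted p = 0.013), and Cyp9f2 had 768.2, 1051 and 543.0 against 308.3 and 313.3 (−1.29, SE 0.25, adjusted p = 0.0075). Immune genes gave single calls, 1 higher and 1 lower of 17 abundant antimicrobial and immune-induced peptides and 1 lower of 24 genes of immune recognition. The lower recognition gene was PGRP-LA, of the peptidoglycan receptor family, with 245.6, 177.1 and 130.5 against 105.8 and 47.4 (−1.32, SE 0.34, adjusted p = 0.02). The ages did not overlap in GstT4, Cyp9f2 or PGRP-LA. When 14-day replicate 3 was left out, the 5 genes followed here, BaraC among them, had changes of −1.90 to −0.75 with adjusted p of 0.14 to 0.36.

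The yolk protein genes and some storage protein genes rose. Fat body of adult females secretes the yolk proteins Yp1, Yp2 and Yp3, which follicles take up, and the hexamerins Lsp1 and Lsp2 are storage proteins of the blood. The list of yolk and fat body had 23 abundant members, 7 higher and 0 lower, but the list median was 0.02, so most of the list did not move with these 7, which were Yp1, Yp2, Yp3, fit, Lsp1beta, Lsp2 and the lipid transfer protein Apoltp. Yp3 (X, 13759546 to 13761547) had 7302, 14664 and 4084 reads against 41516 and 31236 (log2 fold change 2.25, SE 0.63, adjusted p = 0.028). Yp1 had 22814, 20440 and 7333 against 67449 and 49592 (1.94, SE 0.74, adjusted p = 0.089), and Yp2 had 9177, 10108 and 2642 against 31135 and 22036 (2.07, SE 0.69, adjusted p = 0.056). In each yolk gene the 14-day libraries were above all 3-day libraries, of which replicate 3 was lowest.

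The female satiety gene fit, named after its values were seen, had 363.3, 1173 and 213.2 against 3063 and 2102 (2.49, SE 0.83, adjusted p = 0.056). Lsp1beta had 85.2, 110.5 and 43.8 against 847.9 and 216.0 (2.51, SE 0.79, adjusted p = 0.044). Lsp2 had 54.9, 1710 and 145.1 against 4671 and 892.6 (3.08, SE 1.02, adjusted p = 0.053), and it was the only one of these genes whose ages overlapped. Carrier proteins of the blood and antennae were higher too: Obp99a had 631.4, 1191 and 663.8 against 2873 and 2940 (1.87, SE 0.41, adjusted p = 0.01), and Obp99c had 519.2, 685.8 and 938.6 against 1911 and 1669 (1.36, SE 0.29, adjusted p = 0.01). They were 2 higher genes of 20 abundant odorant-binding proteins, of which 1 was lower. The list median was −1.52, but −0.20 without 14-day replicate 3 and −0.97 without 3-day replicate 1. The immune-induced peptide IM33 had 211.9, 449.0 and 332.3 against 804.2 and 691.6 (1.23, SE 0.41, adjusted p = 0.053).

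After removal of 14-day replicate 3, the 9 genes of this group had changes of 1.34 to 4.28 with adjusted p of 0.14 to 0.3, and without replicate 2 they had 1.13 to 2.22, where 2 passed. With quantile normalization 8 of the 9 passed. Of the 6 fat body markers 4 were higher, all of them genes named here, and the amount of fat body on the brains was not tested.

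The largest rises among abundant genes included genes known from the ovary and the cell cycle. All 12 of the largest had 3-day means below 100 and count as abundant only through the 14-day libraries, as did 102 of the 181 higher genes, so counts of rises here are descriptions. Cp36 and Cp38 encode proteins of the chorion, the outer eggshell, and lie side by side on the X (8479319 to 8480523 and 8481837 to 8483311). Cp36 had 1.12, 3.51 and 0.811 reads against 964.2 and 33.7 (log2 fold change 6.14, SE 1.28, adjusted p = 0.0096), and Cp38 had 3.36, 1.75 and 2.43 against 621.3 and 66.2 (5.89, SE 0.93, adjusted p = 0.0058). Both were far higher in 14-day replicate 2 than in replicate 3.

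The maternal genes showed the reverse order. The germline thioredoxin dhd had 33.6, 0 and 10.5 against 95.5 and 2691 (6.11, SE 1.37, adjusted p = 0.011). The RNA-localizing gene exu had 1.12, 24.6 and 0.811 against 38.0 and 704.1 (5.17, SE 1.13, adjusted p = 0.011), and the maternal tubulin alphaTub67C had 2.24, 19.3 and 27.6 against 109.3 and 655.4 (4.45, SE 0.87, adjusted p = 0.0074). So 14-day replicate 3 was highest by far in these genes.

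Of 8 abundant genes of mitosis 4 were higher and 0 lower, all 4 (CycA, CycB, stg and Cap-G) with 3-day means below 100. CycB had 17.9, 3.51 and 0.811 against 44.9 and 952.5 (5.28, SE 1.16, adjusted p = 0.011) and CycA had 7.85, 5.26 and 11.3 against 64.4 and 565.5 (4.45, SE 0.81, adjusted p = 0.0061). The mitotic phosphatase stg had 12.3, 19.3 and 14.6 against 136.9 and 363.3 (3.79, SE 0.67, adjusted p = 0.0058). Among 4 abundant replication genes PCNA was higher, with 29.2, 5.26 and 7.29 against 43.7 and 430.7 (3.58, SE 0.93, adjusted p = 0.021). All were highest in 14-day replicate 3, and in PCNA replicate 2 lay nearer to the highest 3-day library than to replicate 3. Without replicate 3 the 10 genes of this group, wisp included, had changes of 1.95 to 8.54 and only Cp36 and Cp38 passed, while without replicate 2 they had 3.75 to 8.51 and 9 passed. Of 4 ovary markers tested 3 were higher, and whether ovary tissue or RNA entered the pools was not tested.

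**Figure D4:**
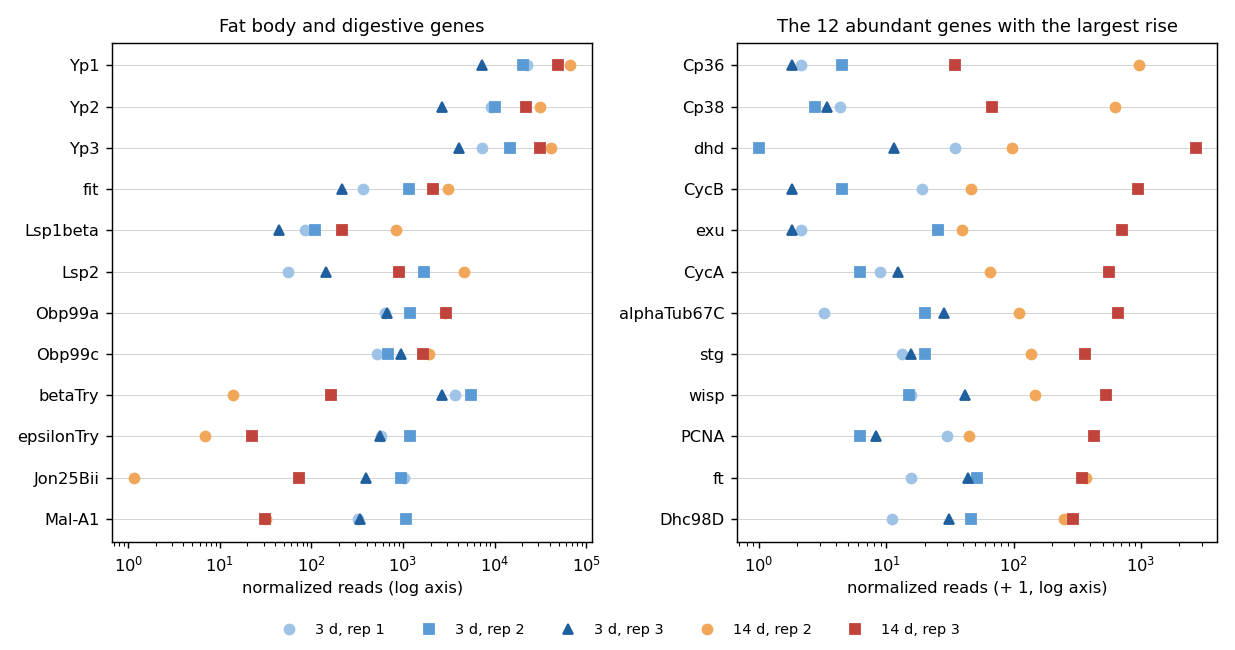
Normalized reads by library (log axes) of fat body and digestive genes on the left, and of the 12 abundant genes with the largest rise on the right, where 1 read was added. Yolk proteins are high and digestive enzymes low in both 14-day libraries, whereas chorion genes peak in 14-day replicate 2 (964.2 and 621.3) and the maternal genes in replicate 3 (dhd at 2691).

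The remaining large rises were of genes for big proteins, whose 14-day libraries were level. The giant cadherin ft, which sets growth and planar polarity, had 14.6, 50.9 and 43.0 reads against 371.6 and 343.3 (3.45, SE 0.71, adjusted p = 0.0094). Dhc98D, a heavy chain of axonemal dynein, had 10.1, 45.6 and 30.0 against 247.4 and 289.6 (3.41, SE 0.68, adjusted p = 0.0081). In both, no 3-day library came near a 14-day one. The touch channel nompC of mechanosensory cilia, a gene named after its values were seen, had 29.2, 49.1 and 45.4 against 202.5 and 228.4 (2.39, adjusted p = 0.017). Of 4 abundant genes of cilium motility 2 were higher and of 10 abundant genes of ciliogenesis 2, with 0 lower, and these 4 genes too had 3-day means below 100. The median exonic length was 3237 bases for the 181 higher, 2465 bases for the 531 lower and 2544 bases for the uncalled abundant genes. Median gene spans in that order were 4853, 5610 and 3701 bases. If 14-day replicate 3 is set aside, the log2 fold changes of ft, Dhc98D and Dnah3 were at least 3.08, with replicate 2 the sole 14-day library. Dnah3, a further axonemal dynein, is a scarce gene.

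Many scarce genes were higher at 14 days, in lists of several tissues. Each list has to be read against the 31.7% of all scarce genes that were higher, with a median log2 fold change of 1.31. That share varied with level. Of 1164 genes with a mean of 10 to 20, 523 were higher (median 2.23), and of 1692 with a mean of 50 to 100, 288 (median 0.39). The lists below were not matched for level. Such genes pass the filter on low values only if some libraries hold reads, so counts over them are descriptions. At this depth 1 read was worth 0.811 to 1.75 normalized reads in the 3-day libraries and 1.15 or 1.25 in the 14-day ones.

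Chemoreceptor genes were among them. These receptors act in sensory neurons of the antenna, mouthparts and legs, outside the brain. Of 57 gustatory receptors that were listed, 44 were tested and 43 were scarce, of which 23 were higher and 0 lower (median 2.79). For ionotropic receptors 29 of 49 scarce genes were higher (median 3.04), for odorant receptors 13 of 49 (median 1.79) and for pickpocket and TRP channels 17 of 33 (median 2.18). The share was above that of all scarce genes except in odorant receptors, and how much of this went with level was not tested.

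The odorant receptor Or85d (3R, 8552608 to 8553968) had 0 reads in all 3-day libraries and 49.5 and 63.7 at 14 days. Against the 3 reads over the group that a count of 0 allows, it was at least 50.8-fold higher (adjusted p = 0.0058). The gustatory receptor Gr98a went from 0 in all 3-day libraries to 34.5 and 48.7, at least 37.4-fold higher (adjusted p = 0.0058), and Gr59c from 0 to 24.2 and 38.7, at least 28.2-fold higher (adjusted p = 0.0073). These receptors were absent or below detection at 3 days at this depth. Ir54a had 0, 0 and 6.48 against 75.9 and 66.2 (5.20, SE 0.92, adjusted p = 0.0058), and the pickpocket channel ppk24 had 0, 7.02 and 2.43 against 105.8 and 108.6 (5.16, SE 0.92, adjusted p = 0.0058). Both 14-day libraries were close in each. Without 14-day replicate 3 the 10 receptors followed kept changes of 3.57 to 5.66 but had adjusted p of 0.14 to 0.16. With quantile normalization 9 of the 10 passed, with changes of 2.28 to 3.52, and the median of odorant receptors was −0.16. Most calls of the lists were lost in that setting. It left 3 of 43 scarce gustatory, 2 of 49 ionotropic and 2 of 49 odorant receptors higher, and 5 of 33 pickpocket and TRP channels.

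Genes of meiosis, the cell cycle and the ovary were among other large rises. Of 18 scarce genes of meiosis 9 were higher (median 2.48, or 2.32 with genes at 0 set to their bound), of 28 scarce replication genes 18 (median 2.09), of 24 scarce genes of mitosis 16 (median 2.82) and of 25 scarce genes of eggshell and ovary 15 (median 2.46), with 0 lower. With quantile normalization the higher genes in these lists were 3, 3, 5 and 3. SA2, a stromalin of the cohesin complex (3L, 1434336 to 1437872), had 0 in all 3-day libraries and 42.6 and 44.9 at 14 days, at least 39.3-fold higher (adjusted p = 0.0035). The meiotic cohesion gene solo had 1.12, 0 and 0.811 against 73.6 and 69.9 (5.54, SE 0.82, adjusted p = 0.0058). In both, the 14-day libraries were level.

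The maternal gamma-tubulin gammaTub37C had 0 in all 3-day libraries and 31.1 and 103.6 at 14 days, at least 60.5-fold higher (adjusted p = 0.0061). The eggshell gene fs(1)N had 1.12, 1.75 and 0 against 67.9 and 159.8 (5.87, SE 0.83, adjusted p = 0.0044), and Pxt, a peroxidase family gene of follicle maturation, had 1.12, 0 and 0 against 28.8 and 260.9 (6.10, SE 1.06, adjusted p = 0.0058). As with the abundant maternal genes, 14-day replicate 3 was highest in these 3. CG14545 (3R, 25850410 to 25851291) had 0 at 3 days and 29.9 and 255.9 at 14 days, at least 128.4-fold higher (adjusted p = 0.0058). CG3323 (X, 5302988 to 5305691) had 0, 0 and 2.43 against 116.2 and 128.6 (6.35, SE 0.89, adjusted p = 0.0044). CG14545 and CG3323 were named only for the size of their rise. When 14-day replicate 3 was left out, CG3323 (adjusted p = 0.097) and SA2 (adjusted p = 0.058) still passed, as 2 of the 9 genes followed.

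**Figure D5:**
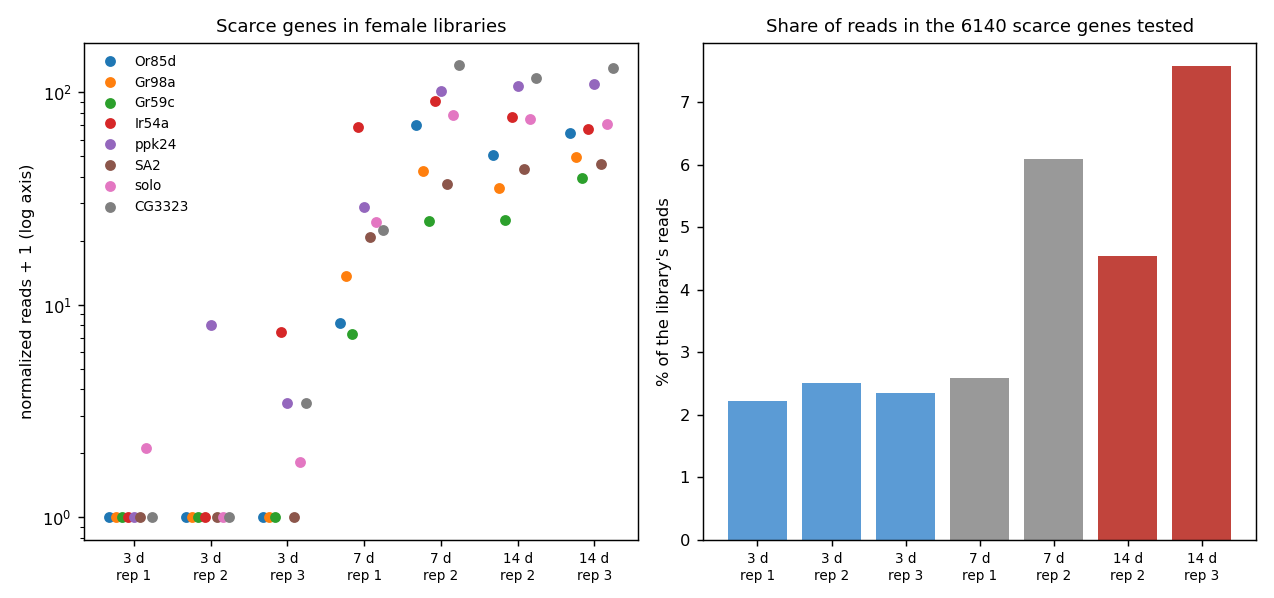
Left, normalized reads plus 1 (log axis) of 8 scarce genes in the 7 female libraries; right, the share of each library's reads that fell in the 6140 scarce genes tested. All 8 genes are at or near 0 at 3 days and above 24 in both 14-day libraries, and the share is 2.22% to 2.5% at 3 days against 4.54% and 7.57% at 14 days.

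Other scarce lists rose in part. Of 82 scarce cuticle protein genes 30 were higher and 1 lower (median 2.24), near the share of all scarce genes. Of 23 scarce genes of cilium motility 9 were higher (median 1.78), of 27 of ciliogenesis 9 (median 1.25), of 56 cytochrome P450 genes 14 with 1 lower (median 0.66), and of 61 testis and accessory gland genes 5 (median 0.49). The cuticle gene Cpr47Ed had 0, 5.26 and 2.43 against 63.3 and 73.7 (4.64, SE 0.74, adjusted p = 0.0058). The cytokine gene upd3, a ligand of the JAK/STAT pathway, had 0, 15.8 and 4.05 against 127.7 and 122.3 (4.84, SE 1.08, adjusted p = 0.011). Both 14-day libraries were close together in each, and the ages were apart. The kinase gene polo of mitosis had 3.36, 5.26 and 0.811 against 35.7 and 273.4 (4.77, SE 0.90, adjusted p = 0.007). After removal of 14-day replicate 3, the 11 genes followed in these lists had changes of 3.32 to 4.87 and none passed (adjusted p = 0.14 to 0.2).

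The 43 scarce genes that were lower were few. Digestive genes were found among them, but of 23 scarce digestive enzymes 2 were lower and 6 were higher (median 0.91). Acp1, an adult cuticle protein (2L, 7740562 to 7741537), had 69.5, 35.1 and 36.5 reads against 1.15 and 0 (−4.96, SE 0.80, adjusted p = 0.0058). Its 3-day libraries were close together, unlike those of the next genes. The trypsin kappaTry had 2.24, 143.8 and 35.7 against 0 and 1.25 (−4.11, SE 1.29, adjusted p = 0.044), and the lysozyme LysB had 149.1, 47.4 and 161.3 against 2.30 and 16.2 (−3.81, SE 1.26, adjusted p = 0.054). The tetraspanin gene Tsp42Er had 12.3, 145.6 and 2.43 against 0 and 1.25 (−3.65, SE 1.28, adjusted p = 0.067). CG43349 and CG5011 completed the 6 largest falls (−4.56 and −4.05). In kappaTry and Tsp42Er 3-day replicate 2 was far above the rest, and without it the call was lost for 3 of the 6 genes. If 14-day replicate 3 is set aside, none of the 6 passed (adjusted p = 0.14 to 0.4).

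At 7 days the medians of these groups of genes lay between 0 and those at 14 days, and both comparisons share the 3-day libraries. The 531 abundant genes lower at 14 days had a median log2 fold change of −1.04 at 14 days and −0.62 at 7 days against 3 days. The 181 higher genes had 1.28 and 0.86, and the 1945 higher scarce genes 3.25 and 2.60. The 7-day libraries themselves differed, with 2.58% of reads in scarce genes in replicate 1 and 6.09% in replicate 2. Opsin Rh5 had 49.6 and 102.1 reads at 7 days, so it was as low as at 14 days, while Yp3 had 24010 and 6059.

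In males, whose libraries are separate, the median change of abundant genes from 3 to 14 days was −0.25. There 663 abundant genes were lower (10.5%) and 181 were higher (2.87%). Of the 531 genes lower in females, 460 had a negative change in males and 126 were called lower there, while 3 were called higher. Of the 181 genes higher in females, 171 had a positive change in males and 58 were called higher there. Scarce genes had a median of 1.15 in males. Of the 1945 higher in females, 1934 had a positive change in males and 314 were called higher. The change in males also followed the mean over the 5 female libraries, with medians of 1.58 below 10 and −0.68 at 2000 or more. How much of the shared direction went with level was not tested. Visual genes had medians of −1.14 (pigments) and −0.99 (cascade) in males, against −1.78 and −1.31 in females.

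The difference of the changes between the sexes was tested for each gene, and 0 of 12448 genes passed (0%). The smallest adjusted p was 0.33 in limma, and 664 genes had an unadjusted p under 0.05. On the recovered reads edgeR also gave 0 genes and DESeq2 gave 60. Abundant digestive enzymes had a median of −4.16 in females and 0.64 in males. Mal-A1 had 30.0, 24.6 and 17.9 reads in 3-day males and 199.9, 50.1 and 34.0 in 14-day males, a change of 1.53 against −3.91 in females (difference −5.44, SE 1.03, unadjusted p = 5.3e-05, adjusted p = 0.33). In the opposite direction stood Obp99a, with a change of −0.15 in males and 1.87 in females (difference 2.02, SE 0.55, adjusted p = 0.63). Neither difference passed after adjustment.

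Along the genome, the abundant genes of the small chromosome 4 had a lower median change than those of the other chromosomes. Of 76 abundant genes there, 14 were lower (18.4%) and 0 higher, and the median was −0.68, against −0.26 to −0.14 for the X and the arms of chromosomes 2 and 3. The median of chromosome 4 was −0.73 in males. On the X 59 of 1113 abundant genes were lower (5.3%) and 55 were higher (4.9%), and of its 859 scarce genes 363 were higher (42.3%). Without 14-day replicate 3 the median of chromosome 4 was −0.46, rescaled on abundant genes it was −0.44, and with quantile normalization it was −0.18. This pattern was described after the values were seen, and the difference between chromosomes was not tested.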

How the data were processed

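RNA of pooled brains was sequenced by the authors with single-end reads, trimmed with Trimmomatic (0.39), mapped with STAR (2.7.3a) and normalized with DESeq2 (2.10) under R (2.14.1); names and versions are from the submitters' processing notes. The deposited signal values are these normalized reads. All of them became whole reads when multiplied by 1 factor per library (tolerance 0.001; 100.0% of values), and the recovered totals were 3313962 to 7652315 in the 5 libraries compared. Reads are not molecules, so floors of 3 reads (1.11 normalized reads over the 3-day group) cover counting error only.

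Values were compared as log2(value + 1) in limma 3.58.1 (R 4.3.3) with its variance trend, all 6 groups in 1 model, for the 12448 genes whose mean across 16 libraries reached 5. Adjusted p values follow Benjamini and Hochberg over all genes tested. On simulated data with 100 genes changed at each size, this setting found 54% of 4-fold and 7% of 2-fold changes, with 8 false calls among 12448 genes. The changed genes all had a mean of at least 20, with as many rises as falls and no shift with level. These rates therefore do not cover the one-sided rises of scarce genes in the real data. A gene was named if its groups did not overlap and it had 1 of the 12 (abundant) or 6 (scarce) largest changes in its direction, or if in its list it ranked among the first 4 by p of those that passed, with the most abundant member taken where none did. Also named were 7 genes the study names and the abundant genes with the smallest p for the sex difference, with cell type markers beside them. The members, the 46 gene lists and the tests were chosen with earlier results of these data known. Positions are those of NCBI's release 6 gene table, matched for 13434 genes by identifier and 4 by synonym, and exonic lengths come from Ensembl's gene models.

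The recovered reads were also fitted with edgeR 4.0.16 and with DESeq2 1.42.0. Other alternatives were quantile normalization, rescaling on abundant genes, other pseudocounts and filters, only the 5 libraries, array weights, a replicate block and other thresholds. Each of the 5 libraries compared, and replicate 1 of the 14-day males, was also left out in turn. Leaving out replicate 1 of the 14-day males, the library with the fewest reads, was chosen after seeing the data. Joins and figures used Python 3.11.15, pandas 2.3.3 and matplotlib 3.10.9.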

Additional observations from a re-analysis of the deposited data

Results flagged for a closer look

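In the 6 genes listed here every 14-day female library was below every 3-day female library. In the same genes every 14-day male library was above every 3-day male library. They were named by their values in these libraries, so the pattern is a description. A lack of overlap between the female ages was common, in 40.6% of abundant and 59% of scarce genes. The fall of CG31704 in females did not pass the threshold. The change in females minus the change in males was −6.23 on the log2 scale for the trypsin kappaTry (adjusted p = 0.63), −5.44 for the maltase Mal-A1 (adjusted p = 0.33), −5.07 for CG17633 (adjusted p = 0.33), −4.36 for the amylase Amy-p (adjusted p = 0.35), −4.40 for CG31704 (adjusted p = 0.39) and −5.40 for CG5399 (adjusted p = 0.44). These differences were tested in limma, and none passed after adjustment over 12448 genes. CG17633 had 275.9, 157.8 and 120.8 reads in 3-day females against 39.1 and 27.5 at 14 days, and 43.3, 5.75 and 14.0 in 3-day males against 174.4, 63.8 and 107.5. Amy-p had 287.1, 296.4 and 232.6 against 41.4 and 73.7 in females, and 11.6, 13.1 and 14.0 against 121.1, 41.3 and 38.8 in males. The gut markers fell in females beside these genes, and the part of gut tissue in the difference was not tested. Groups of 2 or 3 libraries were too small to test a single library as standing apart.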

How the results depend on the processing

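Against 181 abundant genes higher, quantile normalization gave 54, rescaling on abundant genes 316, array weights 435, an adjusted p of 0.05 gave 78, and a split at a mean of 50 or 200 gave 469 or 52. Against 531 abundant genes lower, edgeR gave 343, quantile normalization 106, rescaling 301, array weights 1531 and an adjusted p of 0.05 gave 250. Against 1945 scarce genes higher, quantile normalization gave 179, a mean of at least 20 gave 1256 and an adjusted p of 0.05 gave 1273. Against 43 scarce genes lower, DESeq2 gave 90, quantile normalization 123, rescaling 21, a mean of at least 20 gave 27, the 5 libraries alone 25, array weights 119, the replicate block 22, an adjusted p of 0.05 gave 13, and splits at 50 and 200 gave 19 and 97. Against 0 genes whose change differed between the sexes, DESeq2 gave 60 and array weights 1. The array weights fit gave a convergence warning.

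Leaving out 1 library at a time gave 2 to 291 abundant genes higher, 5 to 1169 lower, 2 to 2226 scarce genes higher, 0 to 90 lower, and 0 to 1 genes differing between the sexes. The lowest counts in the age comparison came without 14-day replicate 3, where a lone 14-day library is assumed to vary like the other groups, and leaving out replicate 1 of the 14-day males was chosen after seeing the data. Among the named genes, 187 lost their call without 14-day replicate 3, 72 without replicate 2, 94 with quantile normalization, 32 with edgeR and 3 with DESeq2.

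Prosbeta5 had a log2 fold change of 0.18, which was −0.05 without 14-day replicate 3 and 0.41 without replicate 2. Sxl had −0.39, which was 0.13 and −0.91 in these settings. With quantile normalization GluRIIB had −0.03 in place of 2.62, Sxl 0.39 and tutl 0.08 in place of −0.80. The cause of these shifts was not tested. Residual correlations between libraries that share replicate number 2 or 3 were −0.046 and 0. With only 2 libraries in the 14-day group their residuals mirror each other, so these values cannot show whether the numbers pair the libraries. With the replicate block the counts were 145, 377, 1449, 22 and 0. At this depth a gene with 0 reads in all 3-day libraries could have had a level of up to 1.11 normalized reads there.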
